A study of Mus musculus with 58 samples.

Results

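The 10 genes described here encode AP-1 subunits and other transcription regulators of the immediate early response: Fos, Fosb, Fosl2, Jun, Junb, Jund, Egr1, Atf3, Ier2 and Nr4a1. They were chosen by name as immediate early genes, with earlier results of these data known. Mapped from symbol to Ensembl identifier, they make up 10 of the 47643 genes in the count tables. They were followed across 34 mouse microglia libraries in 8 groups, sequenced from the 3′ ends of transcripts. Wild-type primary microglia from neonatal hippocampi and cortices received full-length tau fibrils at 2 µg/ml for 24 h (Tau, n = 4) or vehicle (Vehicle, n = 4). Adult microglia came from male mice of 10.98 months (NTG replicates 1 and 2: 11.18 months) that carried the human tau P301S transgene (PS19, n = 4) or did not (NTG, n = 4). Their brains were digested enzymatically, myelin was removed and cells were taken with CD11b beads. The remaining groups were floating cells shaken off mixed glial cultures that had all received 4-hydroxytamoxifen. IkbkbCA (Cx3cr1CreERT2/+;IkbkbCA F/F, n = 5) expressed a constitutively active form of the NF-κB kinase IKKβ after recombination, with IkbkbWT (Cx3cr1+/+;IkbkbCA F/F, n = 5) as control. Ikbkb-/- (Cx3cr1CreERT2/+;Ikbkb F/F, n = 4) had the kinase gene deleted by recombination, with Ikbkb+/+ (Cx3cr1+/+;Ikbkb F/F, n = 4) as control. In both, the cells with Cre also lacked 1 allele of Cx3cr1 and the controls had no Cre. The labels do not say whether the cultures of a group came from separate animals, so p-values measure the spread between these samples, which may be technical.

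Immediate early genes are transcribed within minutes of a stimulus without new protein synthesis, usually through MAP kinases acting on factors already bound to their promoters, and their short-lived mRNAs fall again within hours. FOS proteins (from Fos, Fosb and Fosl2) pair with JUN proteins (from Jun, Junb and Jund) through leucine zippers to form AP-1, which cooperates with NF-κB at many inflammatory genes of macrophages and microglia. ATF3 is a stress-induced leucine zipper protein that can pair with JUN proteins, EGR1 is a zinc finger factor, NR4A1 (Nur77) is an orphan nuclear receptor and IER2 is a nuclear protein of the same early response. In microglia, these genes are also known to be induced by dissociation of living tissue.

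The promoters of Fos and Junb are shown because these were the members for which the effects of the activated and the deleted kinase differed, and because of this pair only the Fos window holds letters of the NF-κB motif. Promoter windows of RefSeq (GRCm38.p6), from 250 bases before to 50 after the start, were searched for 8 of the 10 genes. No window was found for Ier2, and that of Egr1 is not reported here, so the counts below cover neither gene. The 250 bases before the start of Fos lie at chr12:85473640-85473889, plus strand, and those of Junb at chr8:84978749-84978998, minus strand. Their GC content was 58.4% and 66.4%. Capitals mark letters that match the NF-κB motif GGGNNNNNCC on either strand.
Fos: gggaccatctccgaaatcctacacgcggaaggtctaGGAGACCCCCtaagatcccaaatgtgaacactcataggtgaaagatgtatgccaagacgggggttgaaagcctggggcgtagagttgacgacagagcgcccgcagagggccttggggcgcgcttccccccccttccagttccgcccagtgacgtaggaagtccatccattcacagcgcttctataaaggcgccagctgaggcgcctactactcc
Junb: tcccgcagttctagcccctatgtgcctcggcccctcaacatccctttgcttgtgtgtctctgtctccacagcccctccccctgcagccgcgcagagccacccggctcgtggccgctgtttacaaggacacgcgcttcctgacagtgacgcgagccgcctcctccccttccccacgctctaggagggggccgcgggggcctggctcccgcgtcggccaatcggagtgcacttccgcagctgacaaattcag
The Fos window held 1 match, which begins 214 bases before the start, and the Junb window held none. Among the 8 windows of 300 bases, 6 held this motif, which overlapping matches can share. Fosb and Fosl2 each had 4 matches, Jun 3, Atf3 2, and Fos and Nr4a1 1 each. Junb and Jund had 0. Of all 32851 RefSeq windows of this length, 50.8% held the motif, so its letters were common. The CArG box, the binding site of serum response factor, was in 0 of the 8 windows and in 1.63% of all windows. The cyclic AMP response element TGACGTCA was in 0 of 8 and in 1.79% of all, and the AP-1 element TGANTCA was in 0 of 8 and in 7.81% of all. Both strands were searched, and a match is a description of the letters only. Variants of these letters and sites outside the windows were not counted, so 0 matches does not mean that a promoter lacks the element. For Fosl2, Atf3 and Nr4a1 the window lies at an alternative start, and for Jund it lies wholly before the annotated start of the gene, so its letters are not those beside that start.

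Library totals ran from 1672050 to 8349130 counts in genes, and the marker genes of microglia were present in every group. Their summed level, in CPM (counts scaled to a common library size over the 34 libraries by TMM), was 10479 to 12099 in Tau, 4656 to 6192 in Vehicle, 11427 to 22897 in the floating-cell groups and 31111 to 43394 in the adult groups. Ikbkb was lower in Ikbkb-/- (18.7, 22.4, 24.6 and 24.7 CPM) than in Ikbkb+/+ (45.6, 53.3, 53.9 and 55.2 CPM), and those groups did not overlap. It did not separate IkbkbCA (45.0 to 60.4 CPM) from IkbkbWT (40.4 to 58.8 CPM), where 3′ counts need not read the transgene. Sex-linked genes differed between and within groups. Y-linked Ddx3y was at 155 to 173 CPM in Ikbkb-/- and at 35.0 to 69.4 CPM in Ikbkb+/+. In IkbkbWT it was at 177, 164 and 143 CPM in replicates 1 to 3 and at 1.15 and 2.04 CPM in replicates 4 and 5, with 49.3 to 85.9 CPM in IkbkbCA. Xist was at 5.65 to 10.4 CPM in Ikbkb-/- and at 243 to 401 CPM in Ikbkb+/+. PS19 replicate 1, labelled male, held Xist at 177 CPM.

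In the GENCODE annotation (GRCm38), the FOS genes lie on 3 chromosomes: Fos (ENSMUSG00000021250) at chr12:85473890-85477273 on the plus strand, Fosb (ENSMUSG00000003545) at chr7:19302696-19310051 on the minus strand and Fosl2 (ENSMUSG00000029135) at chr5:32135801-32157842 on the plus strand. Jun (ENSMUSG00000052684) lies at chr4:95049034-95052222, minus strand, and Junb (ENSMUSG00000052837, chr8:84974484-84978718, minus strand), Ier2 (ENSMUSG00000053560, chr8:84661331-84662852, minus strand) and Jund (ENSMUSG00000071076, chr8:70698949-70700616, plus strand) share chromosome 8. Egr1 (ENSMUSG00000038418) lies at chr18:34859823-34864984, plus strand, Atf3 (ENSMUSG00000026628) at chr1:191170296-191218039, minus strand, and Nr4a1 (ENSMUSG00000023034) at chr15:101254269-101274795, plus strand. Exons of 3 members overlap a gene on the other strand, and whether the counting used strand is not given in the sources used here. The partners of Jun and Jund, Junos and Gm11175, held 179 and 2 counts in all 34 libraries together. The partner of Junb, Prdx2, was at 29.5 to 362 CPM.

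The strongest contrast in the levels of the 10 genes was between adult and cultured microglia. The mean level in the 8 adult libraries was above the mean of the 26 cultured libraries for 9 genes, by 21.4-fold for Fosb, 10.5-fold for Jun, 10.0-fold for Egr1, 8.29-fold for Nr4a1, 7.47-fold for Fos, 7.03-fold for Atf3, 4.38-fold for Junb, 3.97-fold for Ier2 and 3.27-fold for Jund. For Fosl2 the ratio was 0.737. For 7 of the 10 genes (Fos, Fosb, Jun, Junb, Jund, Egr1 and Atf3) every adult library lay above every cultured library, against 6.56% of the 13722 genes measured across the series. The lowest adult library was NTG replicate 2 for each of these 7. It stood only 1.08-fold above the highest cultured library for Junb and for Jund, but 2.43-fold above it for Fos and for Fosb.

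**Figure D1:**
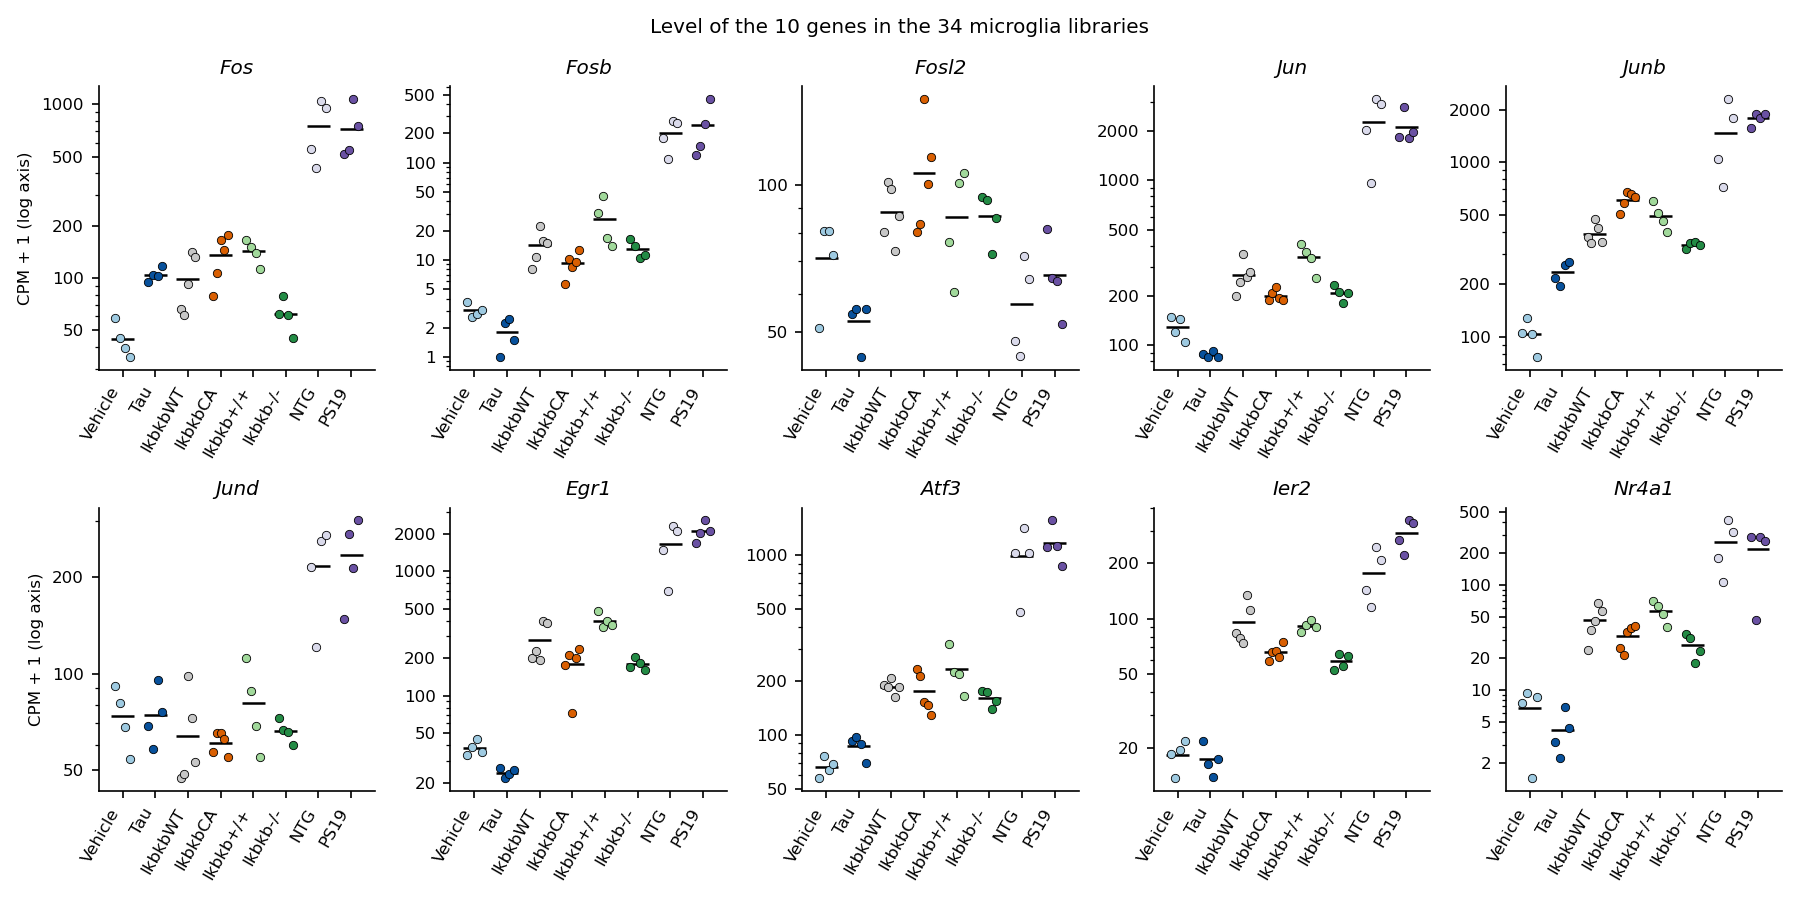
Level of each of the 10 genes in the 34 libraries (y axis: CPM + 1, log scale), 1 point per library, with the group mean as a bar. PS19 and NTG stand highest for 9 genes and not for Fosl2, and Tau and Vehicle stand lowest for Egr1, Jun, Atf3, Ier2, Nr4a1, Junb and Fosb.

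Fos, the founding FOS subunit, was at 514, 546, 1075 and 751 CPM in PS19 and at 552, 429.6, 1046 and 957 CPM in NTG. No library of these groups came near the cultured range of 34.0 to 177 CPM. Below them, the means ran from Ikbkb+/+ (141 ± 22.9 CPM, SD, n = 4) through IkbkbCA, Tau, IkbkbWT and Ikbkb-/- to Vehicle (43.5 ± 10.3 CPM, n = 4), and each neighbouring pair in that order overlapped.

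Jun, which encodes c-JUN, was at 1839, 2798, 1798 and 1974 CPM in PS19 and at 2034, 961, 3123 and 2924 CPM in NTG. In the floating cells it lay between 180.4 and 412 CPM, and in the tau fibril experiment between 83.9 and 148 CPM. The order of the means fell in clear steps, since the adult groups did not overlap with the floating cells, nor IkbkbCA with Vehicle, nor Vehicle with Tau.

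Egr1 showed the same steps over a wider range. Its adult libraries held 698 to 2573 CPM, the floating-cell libraries 72.1 to 483 CPM, the Vehicle libraries 32.6 to 44.0 CPM and the Tau libraries 20.6 to 25.1 CPM. Fosb was nearly silent in the tau fibril experiment, with 4 to 8 counts per library in Vehicle and 0 to 4 in Tau, against 107 to 453 CPM in the adult cells. Tau replicate 1 had 0 counts of Fosb, which allows up to 1.64 CPM (3 counts, counting error only).

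Fosl2, which encodes FRA-2, was the exception. Its means ran from 105 ± 28.4 CPM in IkbkbCA (n = 5) to 51.7 ± 5.47 CPM in Tau (n = 4), with both adult groups between Vehicle and Tau, and every neighbouring pair overlapped. Jund, the subunit known for steady expression, was narrow in culture: 46.2 to 111 CPM over 26 libraries with every neighbouring pair of cultured groups overlapping, and 119.8 to 299 CPM in the adult cells. Ier2 and Nr4a1 were high in adult cells without full separation. For Nr4a1 this was due to PS19 replicate 2 at 45.2 CPM, below the highest cultured library at 69.0 CPM. For Ier2, NTG replicates 1 and 2 (142 and 114 CPM) lay beside IkbkbWT replicates 4 and 5 (134 and 111 CPM), with only NTG replicate 2 below the highest cultured value.

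The adult to cultured difference was tested with edgeR's quasi-likelihood test as NTG against the mean of the cultured controls Vehicle, IkbkbWT and Ikbkb+/+. Of 13004 genes, 30.0% were called higher and 30.8% lower at a false discovery rate (FDR) under 0.05. All 10 genes were called, 9 of them higher. The log2 fold changes were 4.62 for Fosb, 3.44 for Nr4a1, 3.42 for Egr1, 3.38 for Jun, 3.22 for Fos, 2.87 for Atf3, 2.51 for Junb, 1.82 for Ier2 and 1.66 for Jund. Fosl2 was lower by the same test (log2 fold change -0.44 ± 0.16 SE, FDR = 0.0225). Age, enzymatic digestion, bead selection and culture all differed between these groups and cannot be told apart here, and neither can fewer cells of a type and less RNA per cell in any of these bulk samples.

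Genes beyond the 10 moved in the same contrast. Of 25 other immediate early genes tested, 20 were higher and 2 lower, led by Btg2 (log2 fold change 3.96), an antiproliferative gene, Dusp1 (3.86), the phosphatase that switches off MAP kinases, and Csrnp1 (2.95). Ier5l (-2.70) and Id1 (-0.94) were lower. Of 14 genes linked to tissue digestion and stress, 11 were higher and 0 lower, led by the heat shock genes Hspa1a (6.44) and Hspa1b (6.03) and by Socs3 (4.13). Hspa1a was at 541 to 1432 CPM in the adult libraries and at 0 to 3.92 CPM in the tau fibril experiment. Its part in the levels of the 10 genes was not tested.

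The known AP-1 targets did not follow in 1 direction. Of 14 tested, 4 were higher and 9 lower in NTG. Il6 (log2 fold change 3.65), Itgax (2.83) and Ptgs2 (2.81), the gene of COX-2, were higher. Osteopontin (Spp1, -3.57), the elastase Mmp12 (-3.28) and the hyaluronan receptor Cd44 (-2.87) were lower. The other basic leucine zipper (bZIP) genes split 12 higher and 3 lower of 21, with Batf3 (2.53), Mafk (1.90) and Maff (1.67) higher and Crem (-1.47), Atf5 (-1.26) and Jdp2 (-0.60) lower. Among 25 upstream kinases and factors, 10 were higher and 8 lower, from Rps6ka1 (2.10), Map3k8 (1.80) and Mapk14 (1.46) to Elk1 (-2.07), Map2k3 (-0.82) and Map2k7 (-0.75). The median of all genes tested was -0.03.

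Cells given tau fibrils differed from vehicle cells in both directions. After 24 h Fos and Junb had risen by more than 1 log2 unit, Atf3 rose by less, and Jun and Egr1 fell. The comparison asked which transcripts of cultured microglia change on exposure to aggregated tau. Of 10408 genes tested, 14.5% were called higher and 15.4% lower, and of the 9 members tested, 3 were called higher and 2 lower. Fosb did not reach the minimum count and was not tested.

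Fos was at 93.2, 103, 101 and 117 CPM in Tau and at 57.6, 44.1, 38.3 and 34.0 CPM in Vehicle. Every Tau library lay above every Vehicle library. The log2 fold change was 1.30 ± 0.16 (SE, FDR = 3.5e-07).

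Junb, an inducible JUN subunit that often restrains c-JUN, was at 218, 194, 256 and 267 CPM in Tau and at 104, 127, 103 and 75.7 CPM in Vehicle. These groups did not overlap either, and the log2 fold change was 1.23 ± 0.15 (FDR = 2.5e-07). Prdx2, whose exons overlap Junb, was not called in any of the 4 comparisons (log2 fold changes 0.04 to 0.09).

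Jun moved the other way, at 87.8, 84.5, 90.7 and 83.9 CPM in Tau and 148, 119.7, 143 and 104 CPM in Vehicle. Again the groups did not overlap (log2 fold change -0.52 ± 0.14, FDR = 0.00511). Egr1 fell too, from 32.6, 38.0, 44.0 and 34.0 CPM in Vehicle to 25.1, 20.6, 22.3 and 24.1 CPM in Tau (log2 fold change -0.66 ± 0.19, FDR = 0.00945).

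Atf3 rose by less (0.43 ± 0.15, FDR = 0.0286). Its groups overlapped, since Tau replicate 4 at 68.9 CPM lay below Vehicle replicate 2 at 76.0 CPM. The remaining 4 tested genes were not called: Fosl2 had a log2 fold change of -0.41 ± 0.16 (FDR = 0.0609), Nr4a1 of -0.81 ± 0.53 (FDR = 0.267), Jund of 0.06 ± 0.17 (FDR = 0.838) and Ier2 of -0.03 ± 0.25 (FDR = 0.953). Of the tested members, 2 (Fos and Junb) separated upwards and 2 (Jun and Egr1) downwards, where 12.6% and 15.5% of all genes tested did. Fosb, untested, had 0 to 4 counts in Tau and 4 to 8 in Vehicle. Fosb in CPM was at 0, 1.24, 1.46 and 0.482 in Tau and at 2.72, 1.57, 1.74 and 2.03 in Vehicle.

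**Figure D2:**
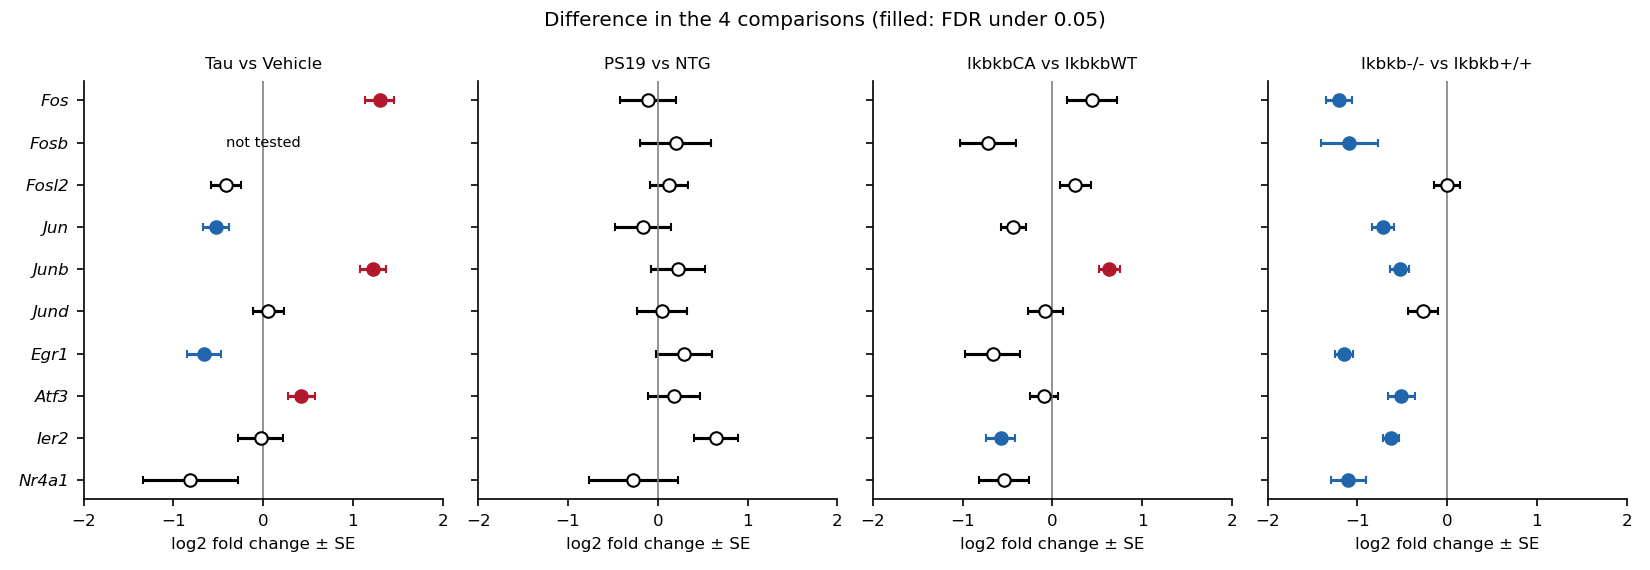
Log2 fold change of each gene in the 4 comparisons (x axis), with standard error bars from edgeR's quasi-likelihood fit; filled points were called at FDR under 0.05. Fos, Junb and Atf3 are called higher and Jun and Egr1 lower in Tau. Junb is raised and Ier2 lowered in IkbkbCA, no gene is called in PS19, and 8 genes are lowered in Ikbkb-/-.

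Other markers moved with the same contrast. The share of reads outside genes was 16.3% to 22.2% in Tau and 23.3% to 29.1% in Vehicle, and with this share as a covariate Fos (log2 fold change 1.36, FDR = 0.00144) and Junb (1.33, FDR = 0.000919) were the 2 members still called. Jun (-0.39), Egr1 (-0.40) and Atf3 (0.41) were not (FDR = 0.362 to 0.519). The share did not overlap between the groups, so this fit can hardly separate it from treatment. Its calls over all genes fell from 3108 to 948. Fos and Junb were also the 2 members called in 1 fit of all 34 libraries. There Jun (-0.51), Egr1 (-0.64) and Atf3 (0.45) were not called at fold changes close to those without the covariate (FDR = 0.130 to 0.199). The 10 microglia markers summed to 10479 to 12099 CPM in Tau and 4656 to 6192 CPM in Vehicle, without overlap. Cx3cr1, among them, was higher (log2 fold change 1.08, FDR = 4.8e-07). Summed over 7 astrocyte markers, the level was 379 to 451 CPM in Tau and 746 to 817 CPM in Vehicle, and over 8 neuron markers 172 to 223 and 323 to 431 CPM. Their part in the changes was not tested.

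Among the other bZIP genes, 4 of 18 tested rose and 0 fell, with Maf (log2 fold change 1.58), Cebpb (1.56), a driver of inflammatory transcription, and the stress factor Ddit3 (1.41) highest. Of 24 upstream kinases and factors, 8 rose and 0 fell. Map3k8 (1.62), the kinase TPL2 that feeds NF-κB signals into ERK, Rps6ka1 (1.51) and Mapkapk2 (0.96) led them. Of 23 other immediate early genes, 3 rose, namely Per1 (0.85), Ier5 (0.72) and Zfp36l1 (0.58), and 6 fell, with Cyr61 (-1.41), Klf4 (-1.17) and Nr4a2 (-1.12) lowest. Of 12 digestion and stress genes, 5 rose, led by Nfkbiz (1.82), Cxcl2 (1.47) and Ccl3 (1.06), which are also NF-κB targets, and 1 fell, Hsp90aa1 (-0.63). Hspa1a stayed at 0 to 3.27 CPM in Tau. Of 12 AP-1 targets, 1 rose, Mmp9 (4.31), and 5 fell, with Spp1 (-1.16), Mmp12 (-1.15) and Plau (-0.53) lowest. The member median was -0.03, and the median over all genes was -0.01.

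In adult microglia, the PS19 transgene was accompanied by no called change in any of the 10 genes. The comparison asked what differs in microglia of mice with tau pathology. Of 11323 genes, 8 (0.0707%) were called higher and 0% lower by edgeR's quasi-likelihood test, with 977 at an unadjusted p under 0.05. DESeq2 called 0 of the 10 as well. For none of the 10 did the groups separate, where 4.54% of all genes separated upwards and 1.66% downwards. Leaving out any 1 library, PS19 replicate 1 with its Xist included, also gave 0 called members. With age as a covariate 0 members were called too, but the member median turned from 0.15 to -0.20, and the calls over all genes went from 8 to 0.

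Ier2 came closest. It was at 268, 221, 341 and 331 CPM in PS19 and at 142, 114, 243 and 207 CPM in NTG, so that NTG replicate 3 lay above PS19 replicate 2. Its log2 fold change was 0.65 ± 0.25, with FDR = 0.478 by edgeR's quasi-likelihood test, and it was the only member with an unadjusted p under 0.05. In 1 fit of all 34 libraries, which borrows the spread of the cultured groups, the FDR for Ier2 was 0.0389.

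Junb was at 1577, 1883, 1793 and 1891 CPM in PS19 and at 1044, 723, 2304 and 1794 CPM in NTG. The PS19 libraries lay within the range of the NTG libraries (log2 fold change 0.23 ± 0.30, FDR = 0.868). Egr1, at 1699.6, 2042, 2573 and 2121 CPM in PS19 and 1477, 698, 2300.2 and 2125 CPM in NTG, differed by 0.29 ± 0.31 (FDR = 0.83).

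The other log2 fold changes were -0.27 ± 0.49 for Nr4a1, 0.20 ± 0.39 for Fosb, 0.18 ± 0.29 for Atf3, -0.17 ± 0.31 for Jun, 0.13 ± 0.21 for Fosl2, -0.11 ± 0.31 for Fos and 0.05 ± 0.28 for Jund. Their FDR ran from 0.902 to 0.978. Within NTG, replicate 2 was the lowest library for each of the 10 genes.

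Of the gene lists, 0 of 20 other bZIP genes, 0 of 25 other immediate early genes, 0 of 25 upstream kinases and factors and 0 of 14 digestion and stress genes were called. Of 12 AP-1 targets, 1 was called, Itgax (log2 fold change 2.08, FDR = 0.000822), which encodes CD11c. Granulocyte markers summed to 390 to 2332 CPM in PS19 and to 1391 to 1975 CPM in NTG.

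In cells with constitutively active IKKβ, Junb was higher and Ier2 lower by edgeR's quasi-likelihood test, and the other 8 genes were not called. DESeq2 also called Jun lower. Of 11697 genes, 7.31% were called higher and 7.16% lower in IkbkbCA. Among the 10 members, 1 was called in each direction, and the groups separated upwards for 1 gene, Junb, and downwards for 0, where 6.51% and 5.85% of all genes did. The comparison asked what activation of NF-κB signalling alone does to cultured microglia.

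Junb was at 502, 581, 671, 658 and 629 CPM in IkbkbCA and at 370.5, 342, 469, 417 and 347 CPM in IkbkbWT. The lowest IkbkbCA library stood above the highest control. The log2 fold change was 0.63 ± 0.11 (FDR = 0.00309).

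Ier2 was at 58.3, 65.4, 66.1, 60.7 and 74.1 CPM in IkbkbCA and at 82.6, 78.1, 73.1, 134 and 111 CPM in IkbkbWT. IkbkbCA replicate 5 lay above IkbkbWT replicate 3, and the controls were highest in replicates 4 and 5, the libraries almost without Ddx3y. The log2 fold change was -0.58 ± 0.16 (FDR = 0.0349). Against IkbkbWT replicates 1 to 3 alone it was -0.27 (FDR = 0.146), and against replicates 4 and 5 alone -0.88 (FDR = 0.00343). Junb was 0.62 and 0.71 in those comparisons (FDR = 0.0252 and 0.0229).

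Fos was at 77.9, 106, 165, 145 and 177 CPM in IkbkbCA and at 65.5, 59.8, 91.1, 141 and 130.2 CPM in IkbkbWT. The groups overlapped widely, and the log2 fold change of 0.44 ± 0.28 was not called (FDR = 0.358). Egr1 was at 177, 210.3, 72.1, 201 and 236 CPM against 201, 229, 194, 399.7 and 384 CPM (-0.67 ± 0.31, FDR = 0.186).

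For Jun the log2 fold change was -0.44 ± 0.14 (FDR = 0.0599), with FDR = 0.0401 by DESeq2 and 0.0417 under total-count scaling, and for Fosb -0.72 ± 0.31 (FDR = 0.156). Nr4a1 had -0.54 ± 0.28 (FDR = 0.239) and Fosl2 0.26 ± 0.17 (FDR = 0.381). Atf3 at -0.09 ± 0.15 and Jund at -0.08 ± 0.19 were close to 0 (FDR = 0.773 and 0.845). Over the members the median was -0.26, against -0.05 over all genes.

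More bZIP relatives rose than fell in IkbkbCA. Of 21 tested, 6 rose and 1 fell, with Jdp2 (log2 fold change 1.11), a repressor that pairs with JUN, Maff (1.07) and Cebpb (1.04) highest and Maf (-0.72) lowered. Of 25 other immediate early genes, 1 rose, Sgk1 (0.99), and 5 fell, with Ier5l (-1.26), Gadd45b (-0.86) and Klf10 (-0.71) lowest. Of 25 upstream kinases and factors, Map2k1 (0.75), Rps6ka1 (0.48) and Map3k7 (0.29) rose and Mef2c (-0.78) and Map3k5 (-0.36) fell. Of 14 digestion and stress genes, 4 rose, with Cxcl2 (2.82), Hspa1a (0.86) and Rgs1 (0.72) highest, and Ccl3 (-0.54) fell. Of 12 AP-1 targets, 3 rose, the gelatinase Mmp9 (4.72), Ccnd1 (0.90) and Plau (0.57), and Spp1 (-0.53) fell. Border-associated macrophage markers summed to 487 to 1034 CPM in IkbkbCA and 1384 to 1957 CPM in IkbkbWT, and Cx3cr1, with 1 allele replaced by Cre, was lower (-0.56, FDR = 0.00153). The percentage of reads outside genes was 12.4% to 13.99% in IkbkbCA and 15.9% to 18.7% in IkbkbWT. Their part was not tested.

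Deletion of Ikbkb was accompanied by lower levels of 8 of the 10 genes. Of 11242 genes, 7.64% were called higher and 6.96% lower in Ikbkb-/-. Fos, Fosb, Jun, Junb, Egr1, Atf3, Ier2 and Nr4a1 fell, while Jund and Fosl2 were not called. The groups separated downwards for 6 of the 10 and upwards for 0, where 9.30% and 8.66% of all genes did. The comparison asked which transcripts depend on the kinase in unstimulated culture.

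Fos was at 165, 149.5, 139 and 111 CPM in Ikbkb+/+ and at 60.6, 77.9, 59.8 and 44.0 CPM in Ikbkb-/-. No Ikbkb-/- library reached the lowest control. The log2 fold change was -1.21 ± 0.15 (FDR = 1.3e-05).

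Egr1 was at 483, 353, 398 and 371 CPM in Ikbkb+/+ and at 171, 204, 182 and 159 CPM in Ikbkb-/-. The separation was wide, with a log2 fold change of -1.15 ± 0.11 (FDR = 2.9e-07). Nr4a1 was at 69.0, 61.7, 51.4 and 38.6 CPM against 33.3, 30.6, 17 and 22.5 CPM, again without overlap (-1.10 ± 0.19, FDR = 0.000625).

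The JUN subunits fell by less. Jun was at 412, 366, 337 and 256 CPM in Ikbkb+/+ and 232, 210.2, 180.4 and 206 CPM in Ikbkb-/- (-0.71 ± 0.12, FDR = 0.000543). Junb was at 595, 509, 461 and 399.9 CPM against 318, 343, 349 and 336 CPM (-0.53 ± 0.10, FDR = 0.00159). Neither gene overlapped between groups. Ier2, at 83.7, 91.6, 97.3 and 89.6 CPM against 51.8, 63.4, 54.2 and 61.7 CPM, did not overlap either (-0.63 ± 0.09, FDR = 8.8e-05).

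Fosb and Atf3 were called with overlapping libraries. Fosb was at 29.6, 44.1, 15.7 and 12.9 CPM in Ikbkb+/+ and at 15.3, 12.8, 9.57 and 10.3 CPM in Ikbkb-/- (-1.09 ± 0.32, FDR = 0.0294). Atf3 was at 320.0, 224, 217 and 164 CPM against 175, 173, 139 and 154 CPM (-0.51 ± 0.15, FDR = 0.0288). DESeq2 called neither (FDR = 0.0939 and 0.121). Without Ikbkb+/+ replicate 2 Fosb was at -0.65 (FDR = 0.129), and without Ikbkb+/+ replicate 1 Atf3 was at -0.32 (FDR = 0.0846). Fosl2 was level (-0.00040 ± 0.14, FDR = 0.999) and Jund had a log2 fold change of -0.26 ± 0.17 (FDR = 0.340). The member median was -0.67, with a median of 0.00017 over all genes.

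**Figure D3:**
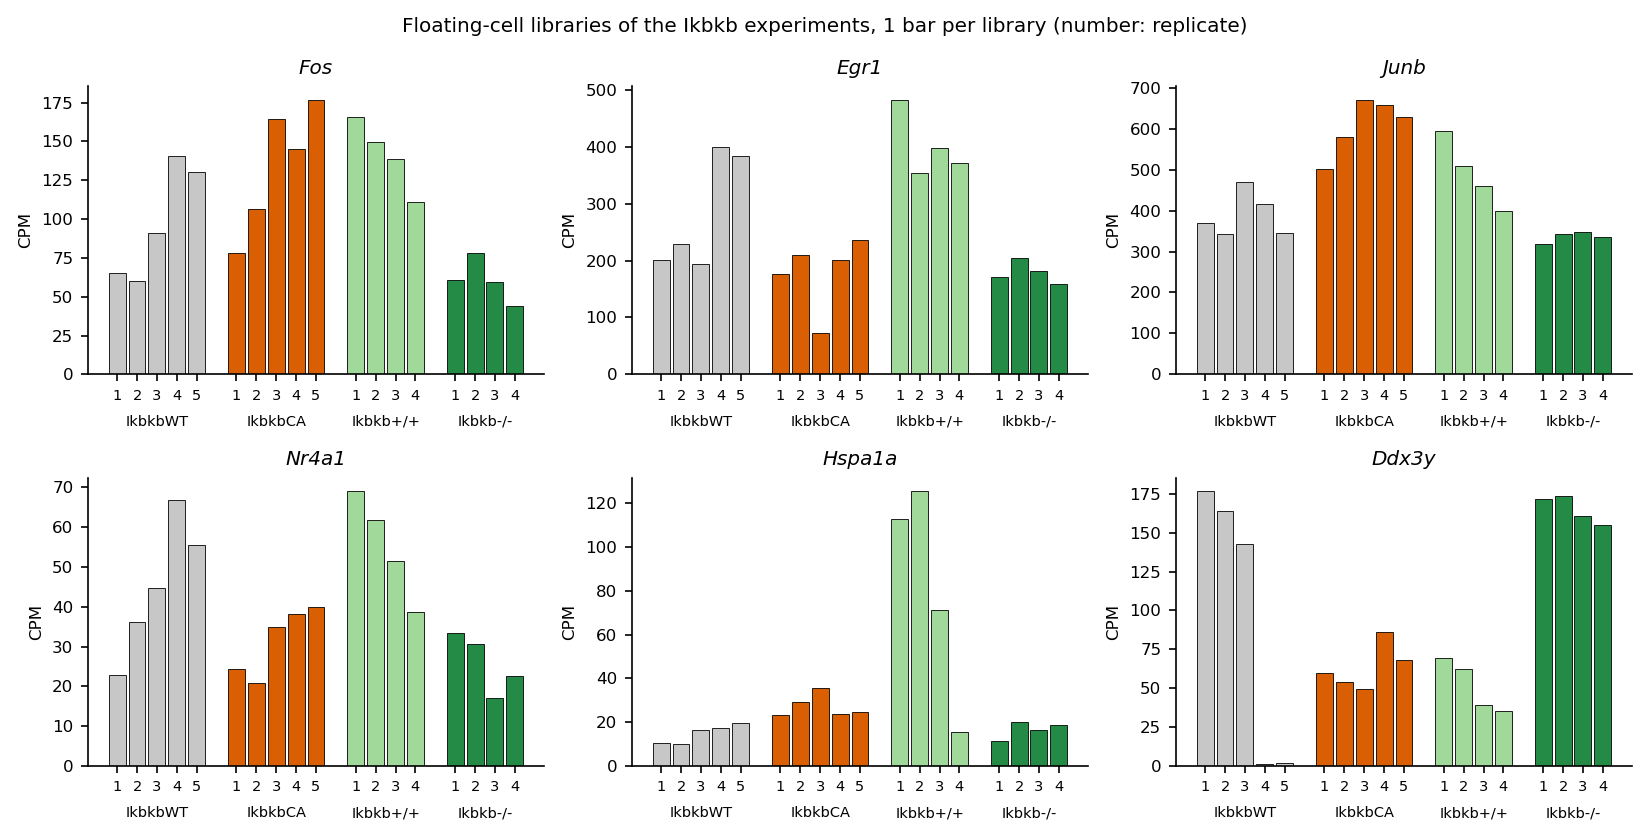
Level of Fos, Egr1, Junb, Nr4a1, Hspa1a and Ddx3y in the 18 floating-cell libraries (y axis: CPM, from 0), 1 bar per library. Hspa1a is at 71.4 to 125 CPM in Ikbkb+/+ replicates 1 to 3 and at 35.8 CPM or less in the others, and Ddx3y is near 0 in IkbkbWT replicates 4 and 5 and highest in IkbkbWT replicates 1 to 3 and Ikbkb-/-.

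Stress genes moved with this contrast. Hspa1a was at 113, 125, 71.4 and 15.4 CPM in Ikbkb+/+ and at 11.5 to 19.9 CPM in Ikbkb-/- (log2 fold change -2.18, FDR = 0.00171), and Dusp1 at 114, 91.6, 74.1 and 32.3 CPM against 19.6 to 26.8 CPM (-1.70, FDR = 0.000239). Against Ikbkb+/+ replicate 4 alone, the control in which Hspa1a was low, the log2 fold changes were -1.03 for Egr1, -0.86 for Fos, -0.60 for Ier2 and Nr4a1, -0.28 for Jun, -0.22 for Junb, -0.14 for Fosb and -0.02 for Atf3. These are values against 1 library chosen after its Hspa1a was seen and carry no test. The part of the stress genes in the changes was not tested.

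Xist was lower in every Ikbkb-/- library than in any Ikbkb+/+ library, and sex and deletion cannot be told apart within these groups. Ddx3y differed as well, in the other direction. With its log2 CPM as a covariate over the 18 floating-cell libraries, 5 members were called: Ier2, Jun, Junb, Fos and Egr1 (FDR = 0.00609 to 0.0297). Fosb (log2 fold change -1.09, FDR = 0.133), Nr4a1 (-0.91, FDR = 0.0657) and Atf3 (-0.57, FDR = 0.106) were not, beside -1.09, -1.10 and -0.51 without the covariate. With the covariate within the 8 libraries of this comparison, where it nearly coincides with genotype, 8 members were called. Jund was among them (-1.87, FDR = 0.000527) and Ier2 was not (-0.51, FDR = 0.417). Against IkbkbWT replicates 1 to 3, whose Ddx3y was like that of Ikbkb-/-, 1 member was called, Ier2 (-0.42, FDR = 0.0284), and Fos (-0.25, FDR = 0.50) and Egr1 (-0.21, FDR = 0.262) were not. Those controls carry a different floxed allele. In those 3 libraries Fos was at 59.8 to 91.1 CPM and Egr1 at 194 to 229 CPM, beside means of 60.5 ± 13.9 and 179 ± 19.1 CPM (n = 4) in Ikbkb-/-.

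Of 25 other immediate early genes, 10 fell and 1 rose in Ikbkb-/-, with Dusp1, Myc (log2 fold change -1.28) and Egr2 (-1.11) lowest and Ier5 (0.55) higher. Of 20 other bZIP genes, 4 fell, with Maff (-1.24), Cebpb (-0.43) and Cebpd (-0.42) lowest, and Ddit3 (1.24) and Jdp2 (0.48) were among those that rose. Of 25 upstream kinases and factors, Mapkapk2 (-0.43) and Rps6ka3 (-0.38) fell and Map2k1 (0.43) rose. Of 14 digestion and stress genes, 7 fell, with the chemokine Cxcl2 (-2.53), Hspa1b (-2.39) and Hspa1a lowest, and Rgs2 (0.55) rose. Of 12 AP-1 targets, 7 fell, with Itgax (-3.63), Ptgs2 (-2.28) and Mmp9 (-1.33) lowest, and Ccnd1 (0.97) and Spp1 (0.35) rose. Border-associated macrophage markers summed to 420 to 739 CPM in Ikbkb-/- and 1501 to 1841 CPM in Ikbkb+/+, and granulocyte markers to 7.70 to 11.7 against 7.57 to 377 CPM. Endothelial markers summed to 162 to 215 CPM in Ikbkb-/- and 63.9 to 116 CPM in Ikbkb+/+, without overlap. Of the 4 endothelial markers, Cldn5 had 0 counts in every Ikbkb-/- library but not in every Ikbkb+/+ library. Oligodendrocyte markers summed to 439 to 530 against 229 to 334 CPM, also without overlap. Cx3cr1 was lower (-1.16, FDR = 1.6e-06). Their part was not tested.

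**Figure D4:**
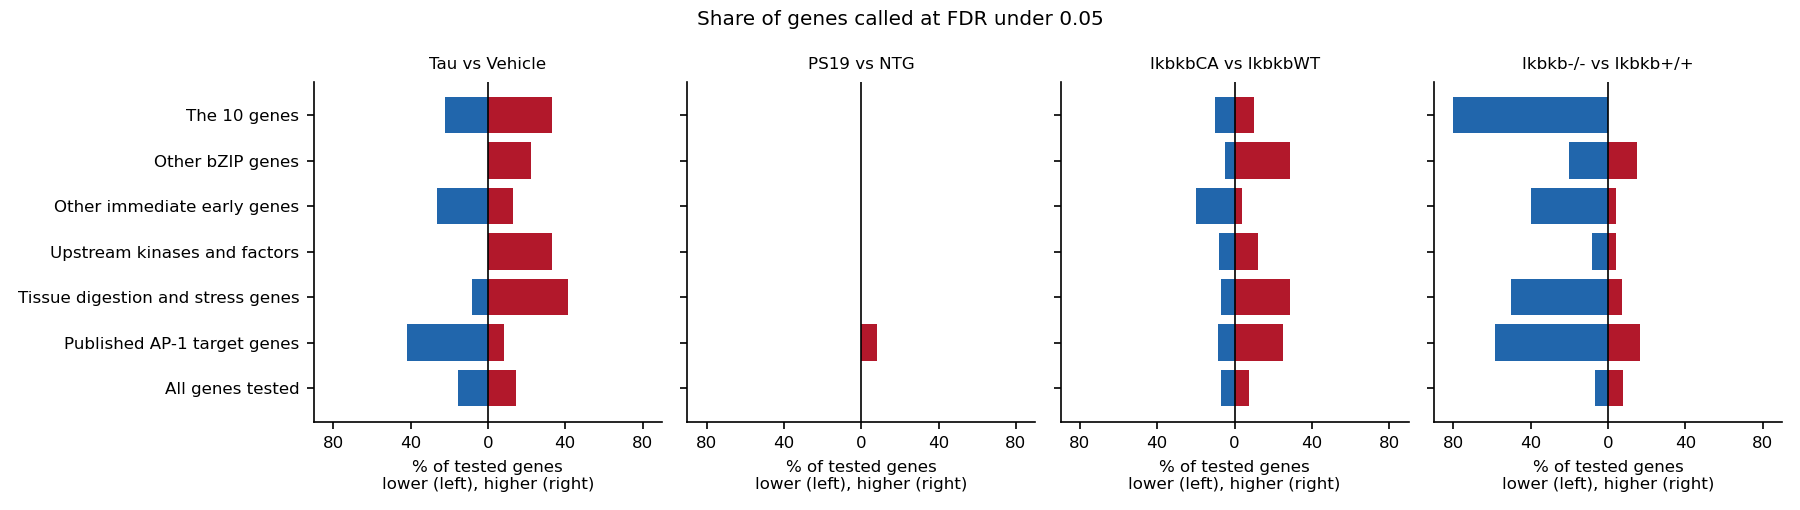
Share of tested genes called at FDR under 0.05 in the 4 comparisons (x axis: percent of tested genes, lower to the left and higher to the right) for the 10 genes, 5 gene lists and all genes tested. In Ikbkb-/- the 10 genes stand at 80% lower and 0% higher, beside 6.96% and 7.64% of all genes. The 10 genes and the lists were chosen with earlier results of these data known.

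The difference between the activated and the deleted kinase was tested directly as the IkbkbCA effect minus the Ikbkb-/- effect, since each has its own controls. Fos (1.67 ± 0.37 on the log2 scale, FDR = 0.0151) and Junb (1.18 ± 0.17, FDR = 0.000341) were the 2 members called, where 3.12% of 12352 genes were. The fold changes behind these were 0.44 and -1.21 for Fos and 0.63 and -0.53 for Junb, so that Junb was called in opposite directions. The Ikbkb-/- effects enter with Ikbkb+/+ as control, so the limits given above for Xist and the stress genes hold here too. For the other 8 genes the difference was positive but not called (FDR = 0.431 to 0.919). Published AP-1 targets were called 4 higher and 1 lower of 12 in this test, digestion and stress genes 6 higher and 0 lower of 14.

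The tau fibril effect and the IkbkbCA effect were not shown to differ for any member. Of 12841 genes, 9.42% differed, and 0 of 10 members did by edgeR's quasi-likelihood test, with 3 at an unadjusted p under 0.05 and 1 called by DESeq2. The log2 differences nearest a call were -0.74 for Fosl2 (FDR = 0.0702), 0.52 for Junb (FDR = 0.108) and 0.78 for Fos (FDR = 0.196). Junb was called higher in both comparisons.

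The tau fibril effect exceeded the PS19 effect for Fos (1.31 ± 0.37 on the log2 scale, FDR = 0.0291), where 8.07% of 11852 genes differed. Egr1 (-1.04, FDR = 0.0893) and Junb (0.91, FDR = 0.123) were not called. Without Vehicle replicate 2, Vehicle replicate 4, NTG replicate 3 or NTG replicate 4 the Fos difference was no longer called (FDR = 0.0531 to 0.0691), and without NTG replicate 2 the Junb difference was (1.23, FDR = 0.0133).

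Within groups, the 10 genes moved together in the adult libraries and little in culture. Correlations were taken between deviations of log2 CPM from the group means, as a description, with libraries as points that also share depth. Over the 8 adult libraries, 44 of the 45 gene pairs had a positive Pearson r, with a median of 0.64. Fos and Ier2 had the highest (0.93), and Jun correlated with Atf3 at 0.92 and with Junb at 0.90. This rested on NTG. The median r was 0.96 over the 4 NTG libraries and 0.07 over the 4 PS19 libraries, and without NTG replicates 2 and 3 the adult median was 0.24, with 30 of 45 pairs positive.

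**Figure D5:**
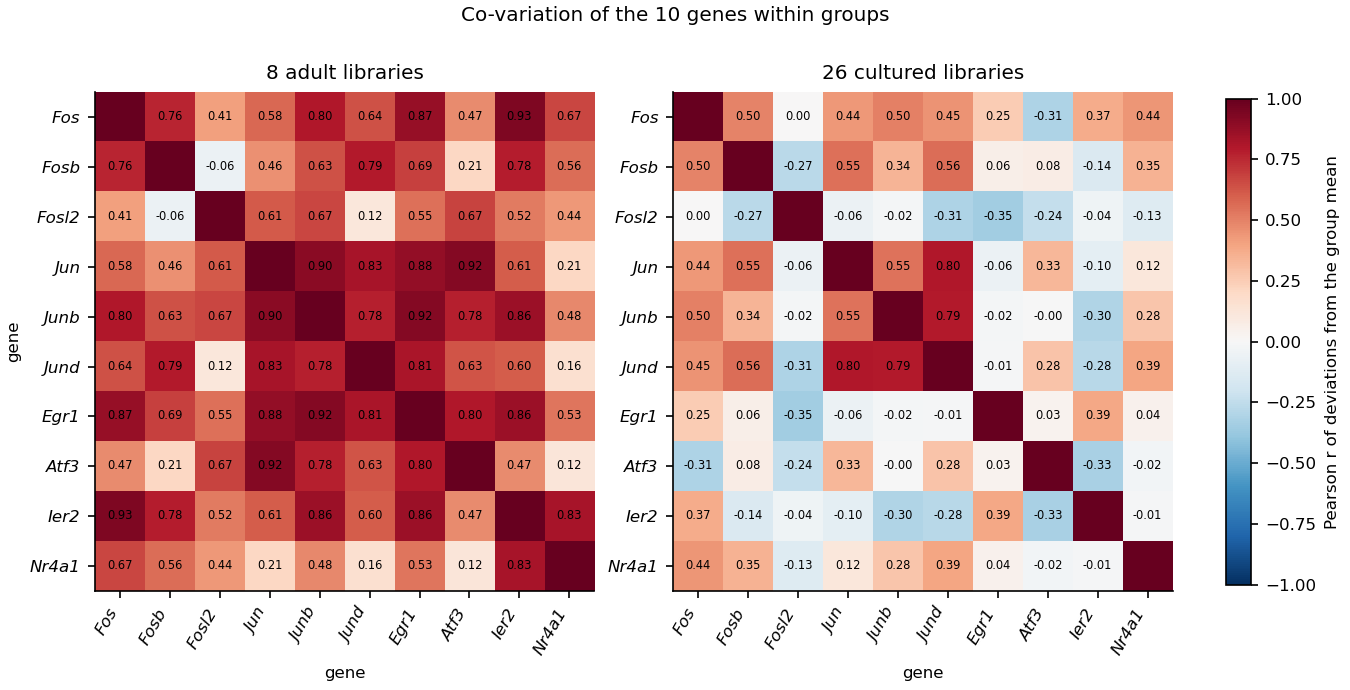
Pearson r between the 10 genes of their deviations from the group mean (color scale: r from -1 to 1), over the 8 adult libraries (left) and the 26 cultured libraries (right). In the adult libraries 44 of 45 pairs are positive, and in culture 25 of 45.

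Over the 26 cultured libraries, 25 of 45 pairs were positive and the median r was 0.04. The highest values were among the JUN genes, with r of 0.80 between Jun and Jund, 0.79 between Junb and Jund. Fosl2 had r between -0.35 and 0.00 with all 9 others. Over the 18 floating-cell libraries alone the median was 0.19, and over the 8 of the tau fibril experiment -0.04.

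Outside the 10, the genes whose deviations followed the members' mean deviation most closely over the 34 libraries, among 13712 genes, were Ppp1r15a (r = 0.787), the stress phosphatase subunit GADD34, Rhob (0.784), Csrnp1 (0.777), Pim3 (0.775) and Gadd45b (0.772). Igsf8 (0.763), Samd4b (0.759), Dusp1 (0.758), Qsox1 (0.753) and Ifi202b (0.729) followed. Over the adult libraries alone, r ran from 0.80 (Igsf8) to 0.98 (Csrnp1). Over the cultured libraries alone, it was 0.14 for Qsox1, 0.49 for Rhob and at most 0.79, for Dusp1. The mean standardized deviation of the members was lowest in NTG replicate 2 (-2.30) and highest in NTG replicate 3 (1.63).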

How the data were processed

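RNA was profiled with QuantSeq 3′ libraries in 34 microglia samples of the series' 58; the 24 cortex samples are not analysed here. The authors deposited whole-number read counts per gene, mapped for these samples on the BlueBee platform (Lexogen QuantSeq) against GRCm38 (GENCODE). The submitters' notes also name STAR (which the methods give for the cortex set), RSEM, edgeR and limma, while the deposited tables hold integer counts and 5 closing lines of unassigned reads, which were left out of library sizes. Multimapped reads made up 52.5% to 56.2% of all reads. Counts were tested as deposited with edgeR 4.0.16 in R 4.3.3: filterByExpr (minimum count 10, minimum total 15), TMM, quasi-likelihood F test, Benjamini-Hochberg FDR under 0.05 over all genes tested. Each comparison was fitted on its own groups; effect differences and NTG against cultured controls were contrasts of group means in 1 fit. SE is |log2 fold change| divided by the square root of F. Levels are TMM-scaled CPM computed from the deposited counts in 1 normalization over the 34 libraries. Correlations used log2 CPM with a prior count of 2. Alternatives used DESeq2 1.42.0 and limma 3.58.1 (voom), other scalings, filters, covariates and left-out libraries. Fits were tested on simulated data. Members and lists were chosen with earlier results of these data known. Named from each list in each comparison were up to 3 highest and 3 lowest genes called, besides the members, Ikbkb and Cx3cr1, and the 10 genes most like the members' mean; 1 listed gene that this rule names is not reported here. Gene coordinates follow GENCODE M21 and sequences RefSeq. Figures were drawn with matplotlib 3.10.9.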

Additional observations from a re-analysis of the deposited data

Results flagged for a closer look

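In 80 pairs of gene and group, 2 had a library far from the others of its group by Dixon's criterion, which flags about 1 in 20 groups by chance. Fosl2 was at 43.5 CPM in Tau replicate 3 and at 53.4 to 55.0 CPM in the other Tau libraries. Nr4a1 was at 45.2 CPM in PS19 replicate 2 and at 263 to 287 CPM in the other PS19 libraries. PS19 replicate 2 also had the highest share of reads outside genes, 38.3%.

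In 3 cases the effects of 2 comparisons differed by a test of the difference itself (edgeR's quasi-likelihood test with Benjamini-Hochberg adjustment). The IkbkbCA effect exceeded the Ikbkb-/- effect by 1.67 for Fos (FDR = 0.0151) and by 1.18 for Junb (FDR = 0.000341) on the log2 scale, and both were called under 25 of 25 alternatives. None of these alternatives replaced the Ikbkb+/+ controls. With IkbkbWT replicates 1 to 3 in their place, the Ikbkb-/- effect alone was -0.25 for Fos (FDR = 0.50) and -0.22 for Junb (FDR = 0.292). The tau fibril effect exceeded the PS19 effect for Fos by 1.31 (FDR = 0.0291).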

How the results depend on the processing

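The 10 genes gave 1637 values under the alternatives. Of these, 1560 stayed on the same side of the threshold, 60 lost the call and 17 gained one. The sign changed in 60 values, none of them called in either fit. Fos and Junb were called under 16 of 16 alternatives in Tau, and Junb under 20 of 20 in IkbkbCA. Atf3 in Tau was called under 8 of 16 and Ier2 in IkbkbCA under 13 of 20. In Ikbkb-/-, of 19 alternatives, Fos and Egr1 were called under 18, Ier2 under 17, Jun and Junb under 16, Nr4a1 under 15, Atf3 under 9 and Fosb under 8. The alternatives for IkbkbCA and Ikbkb-/- include comparisons chosen after seeing the data. Among them, that against Ikbkb+/+ replicate 4 alone carries no test, so its part in these counts says nothing of the controls.

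In 1 fit of all 34 libraries, 2 members were called in Tau (Fos and Junb) instead of 5, 1 in PS19 (Ier2) instead of 0 and 2 in Ikbkb-/- (Fos and Egr1) instead of 8; that fit pools the spread of groups of unequal variability, and the cause was not tested. With the percentage of reads outside genes added as a covariate, which did not overlap between Tau and Vehicle, 2 were called in Tau. The calls over all genes fell there from 3108 to 948. For Ikbkb-/-, 3 comparisons chosen after seeing the data called 3 members (only Ikbkb+/+ replicate 4 as control, where the spread came from Ikbkb-/- alone, so that these calls say nothing of the controls), 5 (18 libraries with Ddx3y as a covariate) and 1 (IkbkbWT replicates 1 to 3 as control). With Ddx3y as a covariate within the Ikbkb-/- comparison 8 were called, but Jund was gained and Ier2 lost, the member median moved from -0.67 to -1.74 and the calls over all genes fell from 1641 to 291. For IkbkbCA, also chosen after seeing the data, IkbkbWT replicates 1 to 3 alone as control gave 1 call. For the tau fibril effect minus the IkbkbCA effect, DESeq2 and a minimum of 10 counts in every library each called 1 member instead of 0. For the tau fibril effect minus the PS19 effect, no filter on low counts gave 3 calls instead of 1. Positive pairs numbered 42 of 45 over all 34 libraries and 25 over the 26 cultured ones.

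Leaving out 1 library at a time gave 4 to 5 called members in Tau, 0 to 0 in PS19, 1 to 3 in IkbkbCA, 6 to 9 in Ikbkb-/-, 2 to 2 for the IkbkbCA effect minus the Ikbkb-/- effect, 0 to 1 for the tau fibril effect minus the IkbkbCA effect, 0 to 2 for the tau fibril effect minus the PS19 effect and 9 to 10 for NTG against cultured controls. In IkbkbCA, 1 member (Junb) was left without IkbkbWT replicate 4 or 5 or without IkbkbCA replicate 1, 2, 3 or 4. No paired analysis was made because the labels do not say whether equal replicate numbers in different groups mark matched cultures or animals.

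Under total-count scaling the median of all genes was -0.16 in Tau, -0.11 in IkbkbCA, -0.19 for the tau fibril effect minus the PS19 effect and -0.24 in NTG against cultured controls. The calls over all genes split 1057 higher and 2254 lower in Tau (1506 and 1602 under TMM), 753 and 1252 in IkbkbCA (855 and 837), 252 and 193 for the IkbkbCA effect minus the Ikbkb-/- effect (275 and 111), 464 and 587 for the tau fibril effect minus the PS19 effect (524 and 433) and 2928 and 5187 in NTG (3899 and 4008). In Tau, that scaling ended the call of Atf3 (FDR = 0.180) and called Fosl2 (log2 fold change -0.56, FDR = 0.0117). In the tau fibril experiment Fosb had 0 to 8 counts per library and was not tested, and Nr4a1 had a standard error of 0.53.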
